A study of Mus musculus with 2 samples.

Results

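Lymphatic endothelial cells, the cells that line lymphatic vessels, were examined among single cells from amputated mouse digits. Members were chosen by the detected genes of each barcode: 201 to 7499 genes and under 15% mitochondrial UMIs (unique molecular identifiers, 1 per captured mRNA), at least 1 UMI of Prox1 or Mmrn1, at least 3 of the 7 genes Prox1, Mmrn1, Flt4, Lyve1, Ccl21a, Cdh5 and Pecam1, at most 1 of C1qa, C1qb and C1qc, and no UMI of Pdgfra. The rule found 64 members among 9967 kept barcodes, 22 of 6715 after FGF8 and 42 of 3252 after BSA. Since these genes chose the members, their levels are given as a description.

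Neonatal ICR mice had hindlimb digits 2 and 4 amputated through the middle phalanx (P2) at postnatal day 3 and received 1 bead at postnatal day 7, soaked in FGF8 (500 ng/µl) or, as the control, in 0.1% BSA. At postnatal day 8, 24 h after the bead, the epithelium was taken off and the tissue distal to the P2 stump was digested, with 20 digits of 5 mice pooled per condition and both sexes in each pool. Each condition is therefore 1 library with no replicate, and treatment, animals, dissection and library cannot be told apart. The FGF8 library held 7249 barcodes and 124889213 UMIs and the BSA library 3703 barcodes and 67739460 UMIs, with 6 barcodes in common, 0 of them members.

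Lymphatic capillaries take up tissue fluid and cells and drain them through collecting vessels with valves to the lymph nodes. Their endothelium arises mainly from veins under the transcription factor Prox1, grows through VEGF-C and its receptor Flt4 (VEGFR3), and carries the hyaluronan receptor Lyve1. It secretes the chemokine Ccl21, which draws dendritic cells into the vessel, and FGF receptors on these cells are known to support their growth.

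Values are given as CPM, UMIs scaled to a total of 1000000, of the summed counts of a group of barcodes. Ratios are log2 of FGF8 over BSA CPM with an exact conditional 95% interval for a pair of Poisson counts, and shares carry exact binomial (Clopper-Pearson) 95% intervals. All these intervals cover counting error only, and no p-value can be had from 1 library per condition.

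The 64 members were not 1 kind of cell, and the kinds described here were recognised after the data were seen. In 15 of them, 10 of FGF8 and 5 of BSA, Plvap was detected and Ccl21a was not. Plvap forms the diaphragms of blood capillary fenestrae, and these barcodes are called Plvap+ members. In the BSA library, 29 further members followed a single expression profile closely, with little spread beyond counting noise, and are called the repeated profile. The remaining 12 FGF8 and 8 BSA members are called individual members. A last group lay outside the rule by depth alone: 6 FGF8 and 3 BSA barcodes met every other condition, were neither Plvap+ nor of the repeated profile, and had 7500 or more genes. The name Plvap+ stands for Plvap with no Ccl21a, since Plvap was detected in other kinds too. It was found in 5 of 12 FGF8 and 3 of 8 BSA individual members and 12 of 29 of the repeated profile. In the last group it was found in 5 of 6 FGF8 and 3 of 3 BSA barcodes.

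The Plvap+ members went against the lymphatic label. Flt1, the VEGF receptor of blood vessels, summed to 1086 and 1342 CPM in the FGF8 and BSA Plvap+ members, and Plvap to 1357 and 1292 CPM. Emcn, a sialomucin of veins and capillaries, was at 1028 and 761 CPM. Blood vessel genes thus led these barcodes. Prox1 was at 53.5 CPM from 13 UMIs in 10 barcodes and at 50.2 CPM from 7 UMIs in 5, at most 2 UMIs in any of them. Lyve1 was at 12.3 and 28.7 CPM, and no UMI of Pdpn was found. Detection of Plvap and absence of Ccl21a chose these barcodes, so both are given as a description only. The sum of 25 blood vessel genes was 9644 and 9717 CPM, against 1080.4 and 1030.1 CPM in the individual members. Blood endothelial cells, taken as kept barcodes without Prox1, Mmrn1 or Pdgfra and with at least 3 of 7 endothelial genes, held 6632 CPM in 139 FGF8 and 6856 CPM in 70 BSA barcodes. The Plvap+ members are therefore named by this gene, and results other than those of all members are given without them.

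The repeated profile was described by the chi-square per degree of freedom between barcodes thinned to 5000 UMIs, which is near 1 for a pair that differs by counting noise alone. Over the 406 pairs of its 29 members, the median was 1.13, from 0.789 to 1.72, and 85.2% of pairs were under 1.3. Pairs of individual members had a median of 2.43 in FGF8 and 4.69 in BSA, and pairs of blood endothelial cells 3.63 and 5.07. The profile was put together by this measure, with pairs under 1.3 linked, so its low values describe the selection. Only barcodes of 5000 UMIs or more entered, 8 FGF8 and 6 BSA individual members, and the lowest single pair of the latter was at 1.26. Against their own summed profile, members of the repeated profile gave 1.22 over 606 genes, with single barcodes from 0.908 to 2.12. They were thus near counting noise but not wholly within it. Individual members gave 6.60 in FGF8 and 8.86 in BSA. Apart from barcodes with 10% or more globin UMIs, no other set of this kind held more than 4 barcodes in BSA or 9 in FGF8. The profile occurred in 43 BSA barcodes, of which 39 passed the cell filter, and 0 FGF8 members shared a profile of this kind. By Xist and Y-linked genes, 26 of its members were female-called, 0 male-called, 2 had both and 1 neither.

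**Figure D1:**
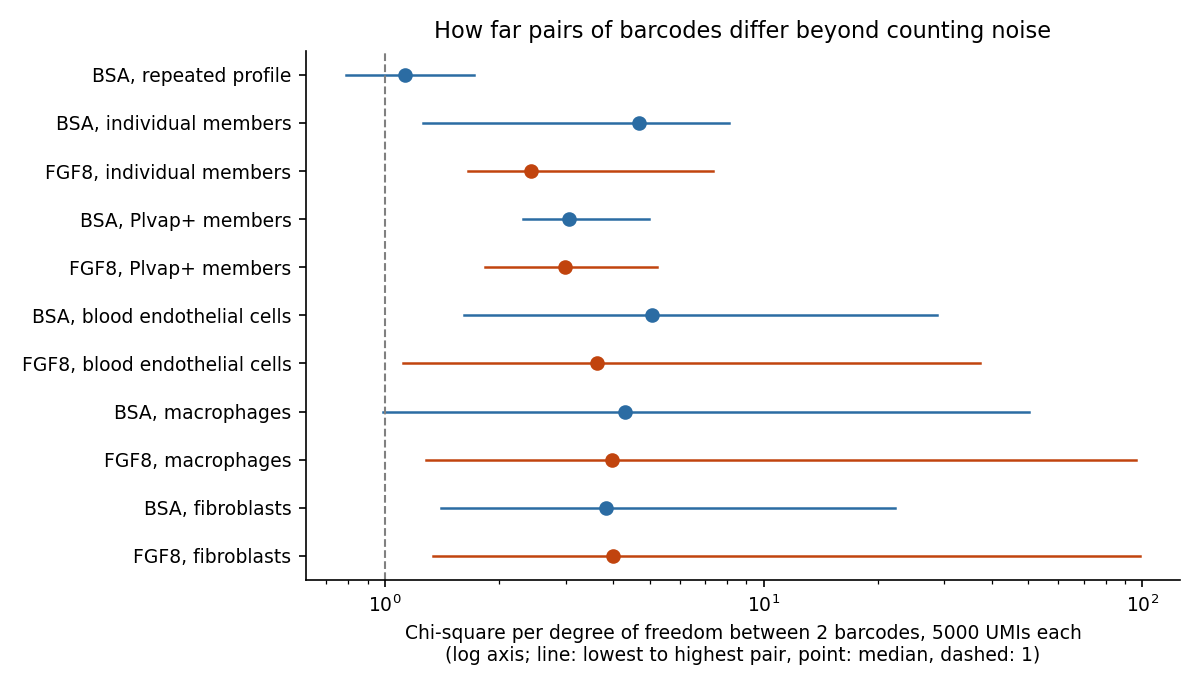
Chi-square per degree of freedom between pairs of barcodes of 1 kind in 1 library, each thinned to 5000 UMIs, on a log axis. Points are medians over pairs, lines run from the lowest to the highest pair, and the dashed line marks counting noise. The repeated profile lies at a median of 1.13 and every other kind at 2.43 or above.

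The cell barcodes of the repeated profile were mostly far apart in sequence, and 3 are shown to make this visible. Their 16 bases differed at a median of 12 positions over the 406 pairs, from 3 to 16, and 1 pair differed at fewer than 4. The closest pair and 1 more barcode are printed 5′ to 3′. Capitals mark, in the first and second, the bases at which these differ from each other and, in the third, those at which it differs from the first.
The first: tcatGGAgtaccggct
The second: tcatTTGgtaccggct
The third: AATtTCCAGCTGAgTG
These barcodes held 11385, 10537 and 15750 UMIs. Separate cells and repeated barcodes of a single cell cannot be told apart from these counts. Shares and the main ratios are therefore given with and without the 29 members, and most other gene results without them.

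The chemokine gene carries a second uncertainty of identity. Mouse Ccl21 exists in near-identical copies on chromosome 4 (GRCm39): Ccl21a at 42772859 to 42773995 on the minus strand, Ccl21b at 42255693 to 42256825 and Ccl21d at 41903610 to 41904743, both on the plus strand. Over the 402 coding bases of GENCODE vM39, Ccl21a differed from each of the others at 2 positions, T84A and C194T, counted from 1 at the start codon with the Ccl21a base first. Coding bases 72 to 101 are printed 5′ to 3′ with position 84 in capitals, to show how little separates the copies.
Ccl21a: tgatggagggggTcaggactgctgccttaa
Ccl21b: tgatggagggggAcaggactgctgccttaa
Ccl21d: tgatggagggggAcaggactgctgccttaa
The last 300 transcript bases, where 3′ reads fall, differed by 3 edits between Ccl21a and each other copy and by 0 between Ccl21b and Ccl21d. The files assigned 20830 FGF8 and 19248 BSA UMIs to Ccl21a, 2 and 1 to Ccl21b and 0 to Ccl21d. The annotation also holds Ccl21e and Ccl21f on chromosome 4, which were not among the counted genes and were not compared. How reads shared by the copies were placed or left out was not examined. The division among copies is therefore uncertain, and Ccl21a values are the UMIs assigned to Ccl21a.

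The members made up 0.328% (0.205 to 0.496) of the FGF8 library and 1.29% (0.932 to 1.74) of the BSA library, with the 95% interval in brackets. Without the Plvap+ members the shares were 0.179% (0.0924 to 0.312) and 1.14% (0.802 to 1.56). Without the repeated profile as well, they were 0.179% (0.0924 to 0.312) and 0.246% (0.106 to 0.484), and these intervals overlapped. With the whole profile counted as 1 cell, the BSA share was 0.280% (0.128 to 0.531). Leaving out the repeated profile thus brought the libraries' shares to within counting error of each other. Of all endothelial barcodes, members and blood endothelial cells together, the individual members were 12 of 161 in FGF8 (7.45%, 3.91 to 12.7) and 8 of 112 in BSA (7.14%, 3.13 to 13.6). Blood endothelial cells were 2.07% and 2.15% of the libraries.

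**Figure D2:**
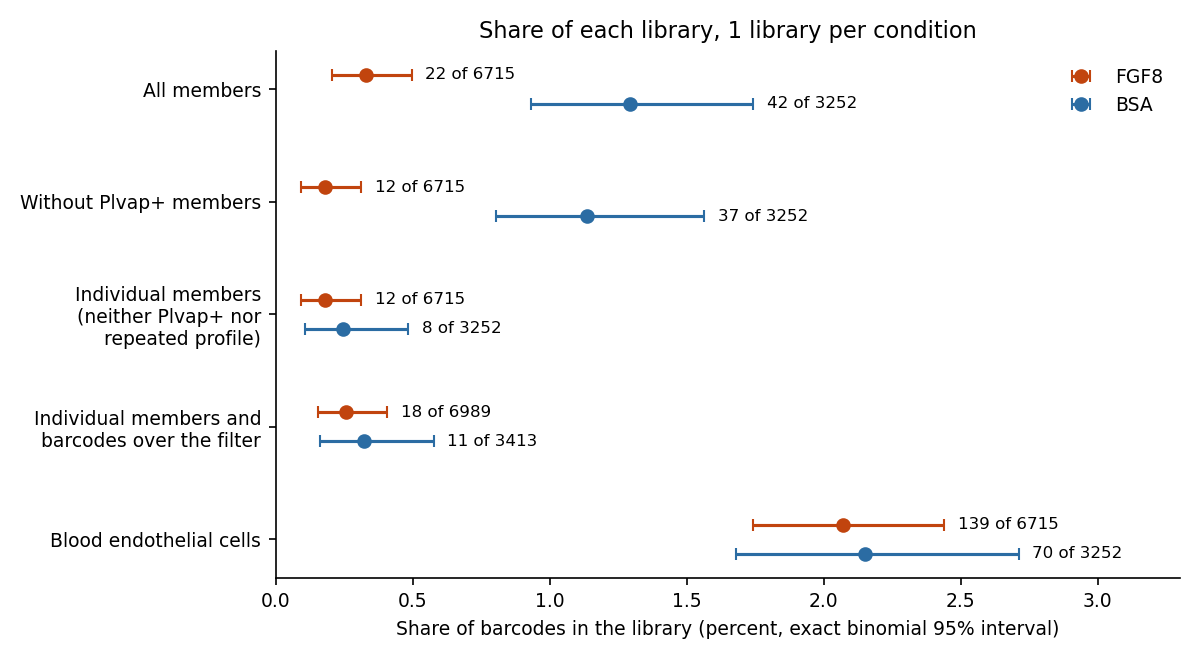
Share of each library's barcodes in percent, with exact binomial 95% intervals, for 5 ways of counting, FGF8 in orange and BSA in blue. All members differ between the libraries (0.328% and 1.29%), whereas individual members (0.179% and 0.246%) and blood endothelial cells (2.07% and 2.15%) have overlapping intervals.

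The upper limit on genes removed most of the lymphatic signal. Barcodes with 7500 or more genes held 18302 of 20830 Ccl21a UMIs in FGF8 (87.9%) and 13749 of 19248 in BSA (71.4%). For Prox1 they held 72.3% and 60.6% of the UMIs, for Mmrn1 84.1% and 66.3%, and for Lyve1 74.3% and 66.3%. Of the 274 FGF8 and 161 BSA barcodes over the limit with under 15% mitochondrial UMIs, 6 and 3 met the rest of the rule and were of neither set-aside kind, or 2.19% (0.808 to 4.71) and 1.86% (0.386 to 5.35). They held 66596 to 170055 and 82589 to 241185 UMIs, against medians of 16679 and 8204.5 in individual members. Of the Ccl21a UMIs over the limit, they held only 7676 in FGF8 and 6566 in BSA. Without the Pdgfra condition there were 14 FGF8 and 8 BSA such barcodes, with 16017 and 12533 Ccl21a UMIs. Single large cells and doublets were not separated among the barcodes over the limit. Taken with the individual members, these 6 and 3 gave 18 FGF8 and 11 BSA barcodes, called the combined lymphatic cells. They made up 0.258% (0.153 to 0.407) and 0.322% (0.161 to 0.576) of the barcodes. Of their UMIs, 643038 of 859625 in FGF8 and 489983 of 578323 in BSA came from the barcodes over the limit. A single BSA barcode held 241185. Combined CPM and ratios therefore weigh mostly these few barcodes and are not means over 18 and 11 cells.

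Just inside the rule, 4 FGF8 and 1 BSA members had exactly 3 of the 7 genes. Just outside it, 4 FGF8 and 3 BSA barcodes met all else with 2 genes. Pdgfra alone removed 2 FGF8 and 19 BSA barcodes, 1 and 12 of them by a single UMI, and 10 kept barcodes of the repeated profile carried it. Exactly 1 UMI over Prox1 and Mmrn1 together admitted 9 FGF8 and 3 BSA members. The FGF8 members held 93.9% of the Ccl21a UMIs in kept barcodes and the BSA members 69.7%, and in BSA the repeated profile, non-members included, held 63.4%.

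Prox1, the transcription factor that sets and maintains lymphatic fate (chromosome 1, 189850232 to 189904637, minus strand), was detected in 10 of 12 FGF8 and 7 of 8 BSA individual members. Its level per barcode was 0 to 1635 CPM (median 386) in FGF8 and 0 to 1679 CPM (median 362) in BSA, so the libraries overlapped throughout. In the barcodes over the limit it was 172 to 1393 CPM (median 402) and 469 to 1005 CPM (median 569). The log2 ratio was 0.50 (−0.03 to 1.06) in individual members and −0.38 (−0.61 to −0.16) over the limit, opposite in sign. Combined it was −0.23 (−0.44 to −0.03), from 536 and 631 CPM. A single barcode held 50% of the 38 BSA individual UMIs.

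Mmrn1, a secreted multimerin of lymphatic endothelium (chromosome 6, 60901960 to 60966362, plus strand), was at 0 to 2006 CPM (median 856) in FGF8 and 162 to 3359 CPM (median 824) in BSA individual members. Combined levels were 1042 and 909.5 CPM, a ratio of 0.20 (0.04 to 0.35), while the ratio over individual members was −0.23 (−0.60 to 0.15). The per-barcode levels did not separate the libraries.

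Flt4, the receptor for VEGF-C (chromosome 11, 49500090 to 49543582, plus strand), stood higher in FGF8 in all members, individual members, barcodes over the limit and the combined cells. It was at 0 to 1646 CPM (median 569.7) in FGF8 and 0 to 1679 CPM (median 311) in BSA individual members, with overlap, and at 601 and 439 CPM in the combined cells. The ratio was 0.94 (0.35 to 1.57) in individual members, 0.37 (0.13 to 0.61) over the limit, 0.45 (0.23 to 0.68) combined and 0.59 (0.24 to 0.95) in all members. Of the other 4 lymphatic rule genes none had this pattern. Thinning all members to 2000 UMIs turned the Flt4 ratio to −0.23.

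Lyve1 (chromosome 7, 110448585 to 110462460, minus strand) was found in 12 of 12 FGF8 and 8 of 8 BSA individual members, at 126 to 7006 CPM (median 1702) and 122 to 6889 CPM (median 1685). The libraries thus covered the same range. Combined levels of 2249 and 1916 CPM gave a ratio of 0.23 (0.12 to 0.34). In all members the ratio was −0.27 (−0.43 to −0.11), and it was 0.46 without the Plvap+ members and 0.45 without the repeated profile. Lyve1 is also known from tissue macrophages, where 33 of 282 (11.7%) FGF8 and 9 of 191 (4.71%) BSA barcodes had a UMI.

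Ccl21a, the chemokine for Ccr7-bearing leukocytes, was detected in 10 of 12 FGF8 and 8 of 8 BSA individual members. Levels were 0 to 18000 CPM (median 9600.1) and 1679 to 26347 CPM (median 11995). The 2 FGF8 barcodes at 0 had 3057 and 7910 UMIs, with mitochondrial shares of 8.21% and 11.35%. The repeated profile covered a narrower range, 2534 to 9217 CPM (median 5524). With this profile kept and the Plvap+ members left out, the sums were 10952 CPM in FGF8 and 7663 CPM in BSA, higher in FGF8. Without the profile the direction was the other. The Ccl21a ratio was −0.66 (−0.75 to −0.57) in individual members, where 1 barcode held 57.4% of the BSA UMIs, −0.17 (−0.21 to −0.12) over the limit and −0.26 (−0.30 to −0.22) combined. A Ccl21a UMI was found in 4 of 282 (1.42%) FGF8 macrophages and 46 of 2452 (1.88%) FGF8 fibroblasts, and in 5 of 191 (2.62%) and 41 of 1315 (3.12%) in BSA, which is the background in cells that should lack the gene. Their median depths were 12526, 18456, 14314 and 21145 UMIs. At 2000 UMIs per barcode, 10 of 12 FGF8 and 7 of 7 BSA individual members still had one.

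**Figure D3:**
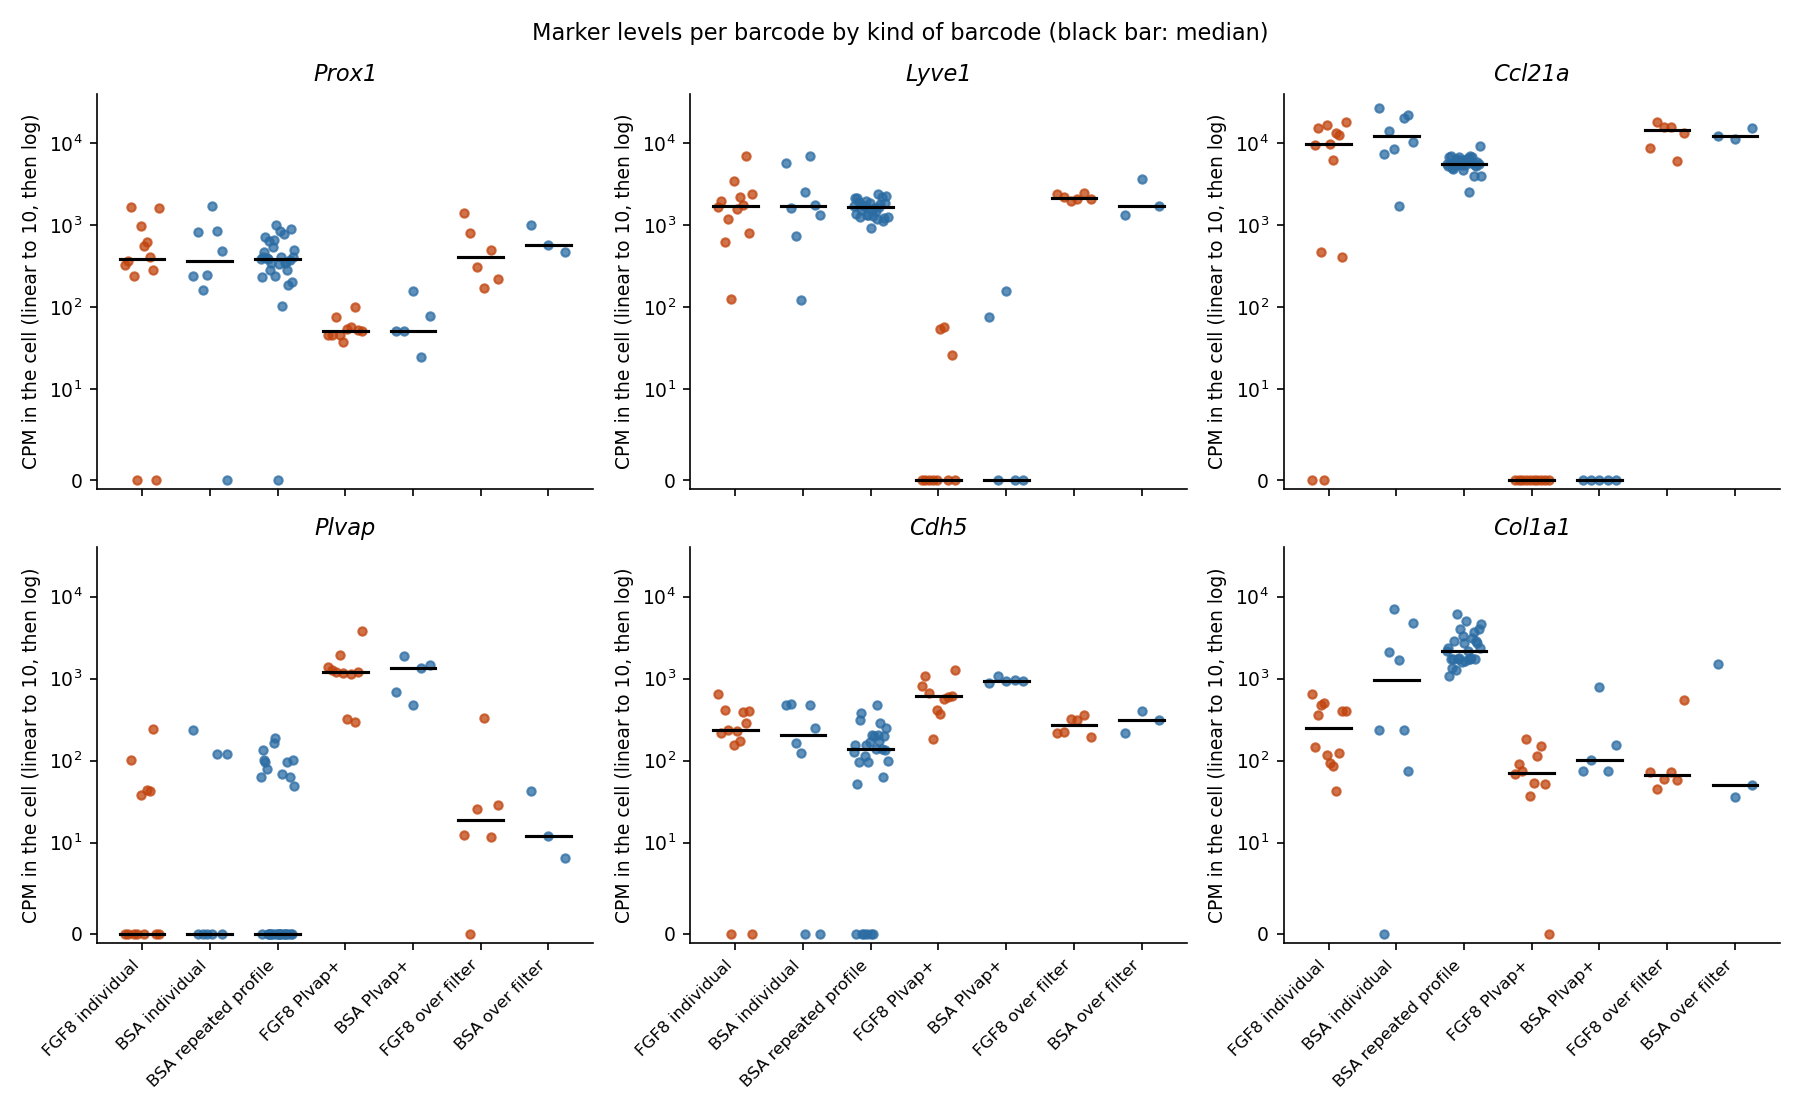
Level of 6 genes in each barcode in CPM, on an axis linear to 10 and logarithmic above, by kind of barcode, with FGF8 in orange, BSA in blue and medians as black bars. Ccl21a is at 0 in the Plvap+ members by their definition, and Plvap is at 298 CPM or more in them. Col1a1 is high in the repeated profile and in some BSA individual members.

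Genes of lymphatic identity that the rule did not use were compared next, from a list of 45 genes. Pdpn, a membrane mucin that binds platelet Clec2, summed to 244 and 188 CPM in FGF8 and BSA combined lymphatic cells (0.37, 0.03 to 0.72). In all members the ratio was −1.53 (−1.96 to −1.11), opposite in direction, with the repeated profile at 537 CPM and the Plvap+ members at 0. Reln, a secreted matrix glycoprotein that lymphatic capillaries make, was at 543 and 429 CPM (0.34, 0.12 to 0.57), and at 173 CPM in the repeated profile. Nrp2, the coreceptor of Flt4 for VEGF-C, was at 924 and 735 CPM (0.33, 0.16 to 0.50), and its ratio was 0.59 (0.17 to 1.03) in individual members and 0.26 (0.07 to 0.46) over the limit. The Reln ratio was 0.38 (−0.13 to 0.91) in individual members, an interval that held 0, and 0.29 (0.04 to 0.55) over the limit.

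Mrc1, the mannose receptor that lymphatic endothelium shares with macrophages, had the highest ratio of this list in the combined cells. It was at 136 CPM in FGF8, in 13 of 18 barcodes, and at 64.0 CPM in BSA, in 4 of 11, a ratio of 1.09 (0.54 to 1.66). Over the limit it was at 12.2 to 195 CPM and 36.1 to 133 CPM per barcode, with overlap, and the ratio was 0.78 (0.19 to 1.4001). The sum of 11 macrophage markers was 73.9 CPM in FGF8 and 22.6 CPM in BSA individual members, from 16 and 2 UMIs in 4 and 2 genes, and 21.8 and 8.16 CPM over the limit. Its part in the Mrc1 ratio was not tested.

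Tspan18, a tetraspanin, was at 451 and 275 CPM (0.72, 0.45 to 0.99), with ratios of 1.55 (0.79 to 2.41) in individual members and 0.54 (0.24 to 0.84) over the limit. Maf, a transcription factor of lymphatic endothelium, was at 344 and 308 CPM (0.16, −0.11 to 0.44). Stab1, a scavenger receptor, was at 275 and 269.7 CPM (0.03, −0.27 to 0.33). Of Tspan18, Maf and Stab1, Tspan18 alone had an interval clear of 0. Ptx3, a secreted pentraxin, was at 319 and 244 CPM (0.39, 0.09 to 0.69). Il7, a survival factor for lymphocytes, was at 75.6 and 69.2 CPM (0.13, −0.46 to 0.73).

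Over the whole list, 36 of 45 genes had the 20 UMIs needed in the combined cells. Of them 23 were above 0 and 13 below, with a median ratio of 0.09 beside 0.04 over all 7786 genes. Mrc1 was above 1, and Gja4, Cldn11 and Dtx1 (a Notch regulator) were below −1, where 4.47% and 2.90% of all genes were. In all members, 38 genes were compared and the median was 0.22 beside 0.08, with 7 above 1 and 4 below −1, where 9.47% and 5.53% of 7130 genes were. In individual members 6 of 28 were above 1 and 0 below −1, with 14.7% and 3.86% of all genes. Over the limit these counts were 1 and 2 of 34, with 3.90% and 3.20%.

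Valve and collecting vessel genes followed. Foxc2, the forkhead factor of valve formation, was found in 6 of 18 FGF8 and 2 of 11 BSA combined cells, at 12.8 and 12.1 CPM. Gata2, its upstream regulator, was at 33.7 and 19.0 CPM (0.83, −0.22 to 1.98), and Itga9, the integrin of valve leaflets, at 294 and 244 CPM (0.27, −0.03 to 0.58). Gja4 (connexin 37) was at 46.5 and 107 CPM (−1.204, −1.82 to −0.61), with a ratio of −1.096 over the limit, though 1 barcode held 87.1% of the BSA UMIs. Gja1 (connexin 43) was at 218 and 211 CPM (0.04, −0.29 to 0.39). Piezo1, the mechanosensitive channel, was at 277 and 240.3 CPM (0.20, −0.10 to 0.52), and the flow-induced factors Klf2 and Klf4 had ratios of −0.0038 (−0.36 to 0.35) and −0.22 (−0.69 to 0.26). Of 16 valve and collector genes compared, 8 were above and 8 below 0.

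Receptors were read beside ligands in the VEGF pathway. Kdr (VEGFR2) was at 451 and 455 CPM (−0.01, −0.24 to 0.22) in the combined cells, and at 377 and 404 CPM in blood endothelial cells. Flt1 had 1 UMI in each library's combined cells, and Nrp1, the partner of Flt1 and Kdr, had 2 in each. In blood endothelial cells Flt1 had 1672 and 716 UMIs. Lymphatic cells thus carried Flt4, Kdr and Nrp2 and almost no Flt1 or Nrp1. Vegfc, the ligand of Flt4, had 1 UMI in FGF8 and 3 in BSA combined cells, and Vegfd had 0 in both. Blood endothelial cells had 37 Vegfc UMIs in 20 of 139 FGF8 and 25 in 10 of 70 BSA barcodes.

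Among angiopoietin and adrenomedullin genes, Angpt2, a ligand of the Tie receptors, was at 57.0 and 72.6 CPM (−0.35, −0.97 to 0.28), and the receptor Tie1 at 194 and 176 CPM (0.14, −0.22 to 0.51). Ramp2, which with Calcrl forms the adrenomedullin receptor, was at 948 and 885 CPM (0.10, −0.06 to 0.26), and Calcrl at 149 and 164 CPM (−0.14, −0.54 to 0.26). All 4 intervals held 0. Ackr3, a scavenger receptor for adrenomedullin and Cxcl12, was at 57.0 and 147 CPM (−1.37, −1.90 to −0.84). Over the limit its per-barcode level was 8.59 to 101 CPM in FGF8 and 54.1 to 448 CPM in BSA, with overlap, but in individual members the ratio was 0.71 (−0.62 to 2.29), so the direction depended on the grouping.

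Because the bead delivered FGF8, FGF receptors and genes known to follow FGF and ERK signalling were examined. Fgfr1 was at 225 and 183 CPM in FGF8 and BSA combined lymphatic cells, with a ratio of 0.29 (−0.06 to 0.65) and with 0 to 489 CPM and 0 to 839.6 CPM per barcode. In blood endothelial cells Fgfr1 was at 56.0 and 50.6 CPM. The receptor thus stood higher in lymphatic than in blood endothelial cells of both libraries. Fgfr2 was at 34.9 and 27.7 CPM (0.34, −0.59 to 1.31). Fgfr3 had 1 and 0 UMIs, and Fgfr4 had 0 in 859625 and 578323 UMIs, which allows up to 3 UMIs, or 3.49 and 5.19 CPM.

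Dusp6, the ERK phosphatase induced by FGF, was at 51.2 CPM in FGF8 (11 of 18 barcodes) and 22.5 CPM in BSA (2 of 11), with a ratio of 1.19 (0.27 to 2.20). Over the limit it was at 12.2 to 88.2 CPM and 0 to 45.6 CPM per barcode, and the groups overlapped. Among individual members there were 14 UMIs in 5 of 12 FGF8 barcodes and 0 in BSA. Ier3, an early response gene, was at 108 and 20.7 CPM (2.38, 1.51 to 3.39), with 0 to 1204 CPM per barcode in FGF8 and 0 to 72.6 CPM in BSA. Both genes were higher in FGF8. Of the feedback inhibitors, Spry1 was at 14.0 and 31.1 CPM (−1.16, −2.34 to −0.02), Spry2 at 17.4 and 15.6 CPM (0.17, −1.12 to 1.54), Spred1 at 41.9 and 29.4 CPM (0.51, −0.36 to 1.44) and Spred2 at 27.9 and 15.6 CPM (0.84, −0.31 to 2.13). The ETS factor Etv4 was at 26.8 and 22.5 CPM (0.25, −0.79 to 1.36). Spry1 was on the other side from Dusp6 and Ier3.

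Of 20 listed feedback genes, 13 could be compared in the combined cells, 12 above 0 and 1 (Spry1) below, with a median of 0.35 beside 0.04 over all genes. Ier3 and Dusp6 were above 1 and Spry1 below −1. In individual members 4 were compared, all above 0 (median 0.31 beside 0.16), and over the limit 10 of 13 were (median 0.34 beside 0.01). In all members the median was 0.67 beside 0.08, but Plvap+ members held 251 of the 272 FGF8 UMIs of Ier3 and 26 of 40 of Dusp6. In blood endothelial cells Dusp6 was at 77.4 and 58.9 CPM and Ier3 at 433 and 236 CPM. Feedback genes were also set against blood endothelial cells of the same library. In combined lymphatic cells 18 of 20 were lower in FGF8 and 14 of 15 in BSA (medians −1.58 and −2.06). Of all genes in this contrast, 15.8% and 17.7% were below −1 and 8.36% and 8.96% above 1. The combined cells hold barcodes over the gene limit and the blood endothelial cells do not. In individual members, which lie within the limit, 16 of 19 feedback genes were lower in FGF8 and 9 of 13 in BSA. Their medians were −1.48 and −1.19 beside 0.02 and −0.07 over all genes.

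Immediate early genes, which tissue digestion is also known to induce, were given by grouping. Fos was at 106 CPM in FGF8, in 11 of 18 barcodes, and 19.0 CPM in BSA, in 4 of 11 (2.48, 1.57 to 3.53). Over the limit 1 barcode held 53.3% of the FGF8 UMIs of Fos, and the medians per barcode were 22.2 and 12.4 CPM. Junb was at 180.3 and 83.0 CPM (1.12, 0.64 to 1.62), in 16 of 18 and 6 of 11 barcodes, and Egr1 at 20.9 and 20.7 CPM (0.01, −1.12 to 1.1996). Of 17 genes compared, 10 were above and 7 below 0, with a median of 0.26. In individual members 9 of 10 were above 0 (median 0.66 beside 0.16), in all members 19 of 20 (median 0.44 beside 0.08), and over the limit 8 of 16 (median 0.06 beside 0.01). Fos was at 729 and 484 CPM and Junb at 832 and 602 CPM in FGF8 and BSA blood endothelial cells, so they stood higher in FGF8 there too.

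**Figure D4:**
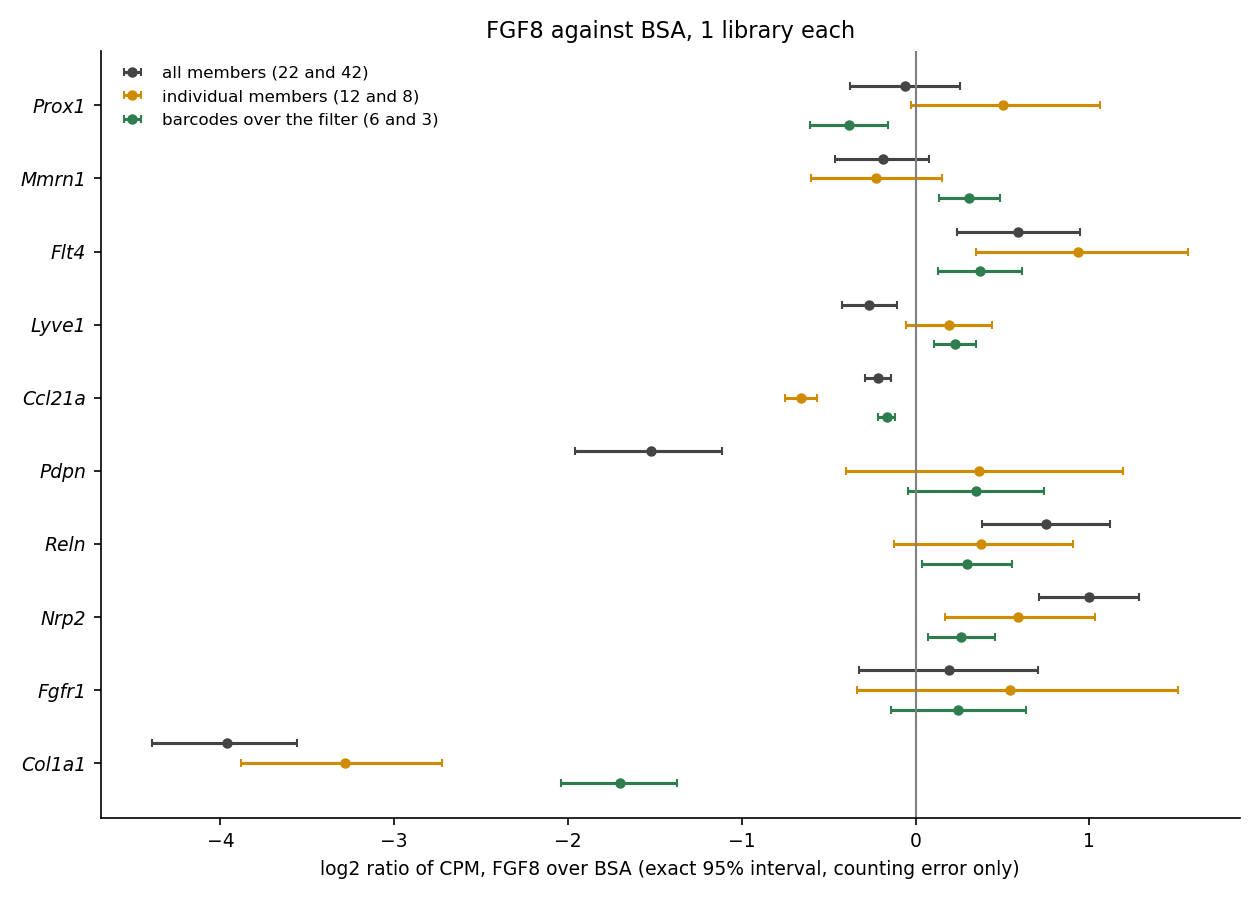
Log2 ratio of CPM, FGF8 over BSA, for 10 genes in all members, individual members and barcodes over the gene limit, with exact 95% intervals for counting error. Flt4, Reln and Nrp2 lie above 0 in all 3 groupings, Col1a1 below −1 in all 3, and Prox1, Mmrn1, Lyve1 and Pdpn change side between groupings.

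Pde4d, a phosphodiesterase that breaks down cAMP and a gene the naming rule picked, had ratios above 2 in every grouping. It was at 0 to 2006 CPM (median 935) in FGF8 individual members, with a UMI in 11 of 12, and at 0 to 356 CPM (median 0) in BSA, with a UMI in 3 of 8. Over the limit it was at 28.7 to 1702 CPM (median 973) and 84.2 to 166 CPM (median 133), and the lowest FGF8 barcode lay below all 3 of BSA. The groups therefore overlapped, although most FGF8 barcodes were higher. The ratio was 4.22 (2.98 to 5.86) in individual members, 2.91 (2.54 to 3.31) over the limit and 3.07 (2.71 to 3.44) combined. Pde4d was also higher in FGF8 blood endothelial cells, at 826 and 348 CPM, and was at 46.2 CPM in the repeated profile.

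Some of the remaining names from the rule in all members sat mostly in 1 kind of barcode and others did not. Of the 10 highest, Il1r1 (an interleukin 1 receptor) had 51 of its 52 FGF8 UMIs in Plvap+ members, and Fabp4 (a fatty acid carrier of capillary endothelium) 1015 of 1016. Their ratios were 3.18 (2.09 to 4.46) and 2.40 (2.21 to 2.60). S100a8, a neutrophil protein, had a ratio of 2.44 (1.69 to 3.25), and the sum of 6 neutrophil markers ran from 0 to 9359 CPM (median 0) in FGF8 individual members, and 1 barcode held 71.6% of the FGF8 S100a8 UMIs. Csf1, the macrophage growth factor, had 2.51 (1.49 to 3.67), with 29 of its 41 FGF8 UMIs in Plvap+ members. Dnm3, Gbp2, Marchf3, Zfp423 and Tmtc2 had ratios of 2.67, 2.66, 2.50, 2.41 and 2.35. Most FGF8 UMIs of Dnm3, Gbp2, Marchf3 and Tmtc2 also lay in Plvap+ members. In all FGF8 members these genes were at 139, 128, 133 and 120 CPM. In individual members Marchf3 and Zfp423 were also higher in FGF8, with ratios of 2.29 (0.28 to 5.42) and 1.43 (0.06 to 3.14). Dnm3, at 60.02 and 11.3 CPM in FGF8 and BSA individual members, Gbp2, at 18.5 and 45.3 CPM, and Tmtc2, at 18.5 and 0 CPM, had too few UMIs there for a ratio.

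The 10 lowest were mostly matrix genes of connective tissue. Col1a1 (collagen I) was at 113 and 1762 CPM in FGF8 and BSA members, a ratio of −3.96 (−4.39 to −3.56), with 978 of the 1126 BSA UMIs in the repeated profile. In individual members it was at 152 and 1483 CPM (−3.28, −3.88 to −2.72). There 3 of the 8 BSA barcodes had 58, 39 and 26 of the 131 UMIs, and their mitochondrial shares were 0.660%, 0.304% and 0.154%. Over all individual members these shares ran from 1.68% to 14.0% (median 3.79%) in FGF8 and from 0.154% to 5.53% (median 1.92%) in BSA. The other BSA barcodes had 0 to 3 Col1a1 UMIs each and the FGF8 ones 1 to 7, so those 3 barcodes carried the ratio. Over the limit the ratio was −1.70 (−2.04 to −1.37), where the 3 BSA barcodes were at 36.3, 49.8 and 1504 CPM, the FGF8 ones at 45.05 to 549 CPM, and 1 BSA barcode held 94.3% of the BSA UMIs. Dcn (the proteoglycan decorin), at 10.9 and 188 CPM, had a ratio of −4.11 (−5.76 to −2.85). Igfbp2, Mfap4, Serpinf1, Bgn (on chromosome X), Col6a1, Aspn and Col1a2 lay between −5.20 and −3.34 in all members. Igfbp2 was at 124 CPM in the repeated profile and at 0 in BSA individual members. Serpinf1 was at 31.4 and 39.8 CPM in the combined cells, a ratio of −0.34 (−1.198 to 0.53) there. Ifi27l2a, an interferon-induced gene and no matrix gene, was at 32.6 and 430.4 CPM (−3.72, −4.58 to −2.97) in members and 30.2 and 299 CPM (−3.31, −3.96 to −2.71) in the combined cells, in 8 of 18 and 6 of 11 barcodes.

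The list of fibroblast markers holds Dcn, named above, so its sum is not independent of these ratios. The sum of 10 fibroblast markers was 577 CPM in FGF8 individual members (129 to 4414, median 633) and 5626 CPM in BSA ones (278 to 26878, median 1433). It was 6073 CPM in the repeated profile and 544 and 1669 CPM over the limit. Of the list, 9 and 8 genes had a UMI in individual members, and Pdgfra was at 0 in all by the rule. The part of fibroblast RNA in the matrix gene ratios was not tested. Mural cell markers were at 23.1 and 67.9 CPM in individual members, Schwann cell markers at 9.23 and 11.3 CPM, keratinocyte markers at 41.6 and 294 CPM, and erythroid markers at 217 and 158 CPM. The BSA keratinocyte sum was 26 UMIs, at 0 to 4272 CPM per barcode (median 162), and the FGF8 one 9 UMIs, at 0 to 400 CPM (median 11.6).

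The repeated profile differed from the individual members in more than matrix genes, and the genes named here were chosen after their values were seen. Lgals3 (galectin-3) was at 868 CPM in it, with 36.9 CPM in FGF8 and 90.6 CPM in BSA individual members. The actin-capping gene Capg was at 566 CPM against 106 and 79.2 CPM, and Sparc, a matrix-binding protein, at 3049 against 877 and 1087 CPM. Fgl2, a fibrinogen-like protein of the identity list, went the other way, at 163 CPM against 757 and 1053 CPM. Prox1 (401 CPM), Mmrn1 (503 CPM), Lyve1 (1658 CPM) and Ccl21a (5594 CPM) were each present in at least 28 of its 29 members. Of 29 identity genes compared between the profile and BSA individual members, 3 were above 1 and 9 below −1, where 14.4% and 6.34% of all 4085 genes were.

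Guidance genes, the semaphorins, ephrins and their receptors that steer vessels and axons, leaned to the FGF8 side. In the combined cells 16 of 17 compared were above 0, with a median of 0.33 beside 0.04 and 0 past 1. Over the limit 14 of 16 were (median 0.26 beside 0.01) and in individual members 10 of 12 (median 0.62 beside 0.16). Reln and Nrp2 are in this list too. Sema6a, a transmembrane semaphorin, was at 255 and 178 CPM (0.52, 0.17 to 0.87), Plxnd1, a semaphorin receptor, at 197 and 166 CPM (0.24, −0.13 to 0.62), and Ephb4, the venous and lymphatic ephrin receptor, at 135 and 119 CPM (0.18, −0.26 to 0.63). Efnb2, its ligand, was the 1 below 0, at 41.9 and 44.96 CPM (−0.10, −0.87 to 0.68).

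Basement membrane genes, which build the thin matrix under the endothelium, were close to all genes. Of 25 compared in the combined cells 16 were above 0, with a median of 0.15 beside 0.04. Hspg2 (perlecan) was at 215 and 145 CPM (0.57, 0.19 to 0.96), the laminin chain Lamc1 at 325 and 247 CPM (0.39, 0.10 to 0.69) and Fbln5, an elastic fibre protein, at 403 and 308 CPM (0.39, 0.12 to 0.66). Lamc1 was higher in FGF8 both in individual members (0.67) and over the limit (0.35), whereas Hspg2 and Fbln5 were at −0.10 and −0.09 in individual members. Sparc was lower in FGF8, at 877 and 1146 CPM (−0.39, −0.54 to −0.23). Of 16 protease and inhibitor genes 10 were above 0, and the urokinase gene Plau, at 51.2 and 22.5 CPM (1.19, 0.27 to 2.20), was found in 11 of 18 FGF8 and 4 of 11 BSA barcodes.

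Among signalling genes, Tgfbr3, the betaglycan coreceptor of TGF-beta, was at 165 and 100.3 CPM (0.72, 0.27 to 1.19), with ratios of 0.79 in individual members and 0.59 over the limit. Over 13 BMP and TGF-beta genes the list had a median of 0.15 with 0 above 1 and 0 below −1. The BMP targets Id1 and Id3 were at 141 and 107 CPM (0.39, −0.06 to 0.86) and 376 and 332 CPM (0.18, −0.08 to 0.44). Of 7 Notch genes 5 were below 0. The receptor Notch2 was at 27.9 and 55.3 CPM (−0.99, −1.81 to −0.18) and Dtx1 at 80.3 and 164 CPM (−1.03, −1.502 to −0.57), the latter in 11 of 18 and 10 of 11 barcodes and lower in FGF8 also in individual members (−0.91) and over the limit (−1.05). Nrarp, a Notch-induced inhibitor, stood on the other side, at 50.02 and 25.9 CPM (0.95, 0.07 to 1.90).

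Leukocyte traffic genes other than Ccl21a were at lower sums. Ackr2, a scavenger of inflammatory chemokines, was at 50.02 and 20.7 CPM (1.27, 0.32 to 2.33) in the combined cells and at 1.098 and 0 CPM in blood endothelial cells. Ccl2, a monocyte chemokine, was at 18.6 and 29.4 CPM (−0.66, −1.74 to 0.41), and Cxcl12 at 14.0 and 41.5 CPM (−1.57, −2.71 to −0.52). Ackr2 was thus higher and Cxcl12 lower in FGF8 by summed counts, beyond counting error but with the spread between barcodes not covered. Spns2, the sphingosine 1-phosphate exporter of lymphatic endothelium, was at 129 and 89.9 CPM (0.52, 0.03 to 1.03). Of 6 MHC and antigen genes compared, 5 were below 0, with a median of −0.30. The checkpoint ligand Cd274 (PD-L1) had 2 UMIs in FGF8 and 0 in BSA combined cells.

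Proliferation genes were mostly lower in FGF8 combined lymphatic cells. Mki67, a protein of cycling nuclei, was at 207 CPM in FGF8, in 7 of 18 barcodes, and 285 CPM in BSA, in 5 of 11 (−0.46, −0.78 to −0.15). Top2a, a topoisomerase of dividing cells, was at 245 and 351 CPM (−0.52, −0.80 to −0.23), in 9 of 18 and 5 of 11. Of 51 G2/M genes compared 41 were below 0, with a median of −0.37 beside 0.04 over all genes. The median was −0.32 over the limit and −0.24 in individual members. Of 38 S phase genes 25 were below 0 (median −0.19). H1f5, a linker histone made in cycling cells, was at 189.6 and 833 CPM (−2.14, −2.40 to −1.88), in 6 of 18 and 7 of 11. This gene was named after its values were seen, as 1 of the 10 lowest ratios in the combined cells, so it is a description only. A Mki67 UMI was found in all 6 FGF8 and 3 BSA barcodes over the limit and in 1 of 12 and 2 of 8 individual members, whose depth was lower. The barcode with most Mki67 had 38.8% of its UMIs in FGF8 and 44.8% in BSA.

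Lymphatic and blood endothelial cells of the same library were compared to describe what sets the members apart, a contrast that the rule itself shaped. The 15 genes with the largest member over blood ratio in both libraries were Ccl21a, Reln, Mmrn1, Tc2n, Prox1, Sh3gl3, Lyve1, Ptx3, Ntn1, Gpm6a, Pard6g, Fgl2, Pdpn, Sema3d and Tmod2. Of these, Ntn1, a netrin, was at 416 and 294 CPM in FGF8 and BSA individual members and at 3.84 and 3.10 CPM in blood endothelial cells. Tc2n was at 439 and 249 CPM against 0.549 and 1.03 CPM, from 1 UMI in each. In the combined cells over blood endothelial cells, 26 of 37 identity genes were above 1 in FGF8 and 27 of 37 in BSA (medians 2.75 and 2.54), where 8.36% and 8.96% of all genes were. The rule used other genes of the same cells, so nothing is read from these counts.

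Blood vessel genes were low in the combined cells, from which barcodes with Plvap and without Ccl21a had been set aside, so their level was partly fixed by that step. The counts were 20 and 19 of 23 below −1, where 15.8% and 17.7% of all genes were, and the medians −4.18 and −4.33. In all members over blood endothelial cells the medians were −0.33 and −1.61. The combined cells hold barcodes of 7500 or more genes and the blood endothelial cells do not. Plvap was at 52.3 and 22.5 CPM in combined lymphatic cells and 935 and 962 CPM in blood endothelial cells. Junction genes were split. Cldn5, a tight junction claudin, was at 949 and 913 CPM in lymphatic and 222 and 153 CPM in blood endothelial cells. Cdh5 (VE-cadherin) was at 277 and 287 CPM against 618 and 545 CPM, Pecam1 at 406 and 309.5 CPM against 1152 and 999 CPM, and Esam, an adhesion molecule, at 8.14 and 15.6 CPM against 388 and 378 CPM. The direction of each was the same in both libraries. Fabp4 was at 4.65 and 1.73 CPM against 989.5 and 3109 CPM.

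**Figure D5:**
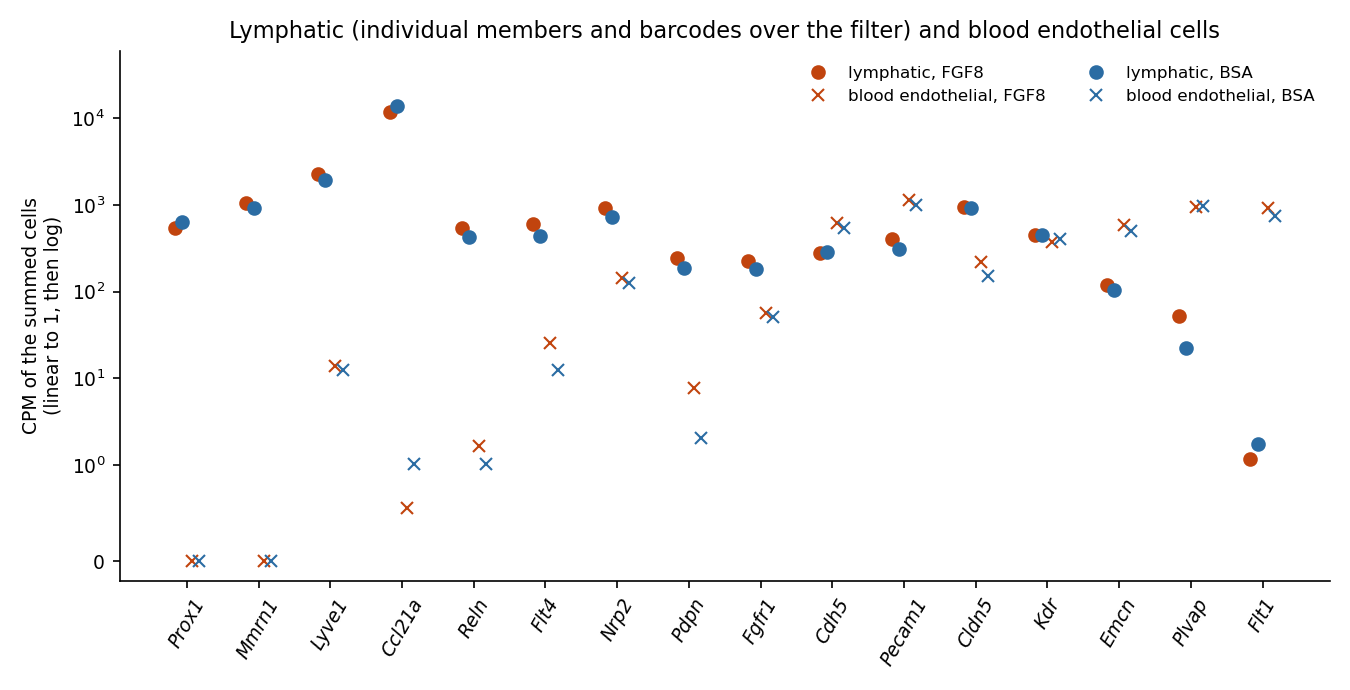
CPM of 16 genes in combined lymphatic cells and blood endothelial cells of the FGF8 and BSA libraries, on an axis linear to 1 and logarithmic above. Prox1, Mmrn1, Ccl21a, Lyve1, Reln and Pdpn lie far higher in lymphatic cells, Flt1 and Plvap far higher in blood endothelial cells, and Kdr lies at 377 to 455 CPM in all 4.

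The sexes of the cells differed between libraries, beside every FGF8 to BSA value. By Xist and Y-linked UMIs, 1151 kept FGF8 barcodes were female-called and 3523 male-called, and in BSA 1943 and 507. Among individual members the counts were 2 and 8 in FGF8 and 2 and 4 in BSA, and over the limit 1 and 3 in FGF8 and 2 and 0 in BSA. The sexes were thus unbalanced between the libraries, with both called in each. Of the 31 female-called BSA members 26 were of the repeated profile, and of the 16 male-called FGF8 members 8 were Plvap+. A split of all members by sex is therefore also a split by kind of barcode. The ratio of Prox1 was 1.23 within male-called and −1.27 within female-called members, and the part of sex in it was not tested.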

How the data were processed

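Single cells were captured with 10x Genomics 3′ chemistry. The authors aligned reads and counted UMIs with Cell Ranger 9.0.0 (GRCm39); the submitters' notes also name mm10. The deposited matrices hold raw UMI counts per gene and barcode, 1 file set per condition. No cell filter had been applied beyond cell calling, so the study's filter (more than 200 and fewer than 7500 genes, under 15% mitochondrial UMIs) was applied here. Columns of other samples numbered 0. Gene IDs matched GENCODE vM39 in 33185 of 33696 cases. Spry3, Cd99 and Aldoa were not among the listed names.

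Counts were summed per group and library and scaled to CPM. Ratios needed 20 UMIs over both libraries, and a gene at 0 in one library was set at a floor of 3 UMIs. No test was run, as each condition is 1 library. Outside the gene lists, names are the 10 highest and 10 lowest ratios in members with 50 UMIs in at least 10 members and the same sign at equal weight, and the 15 highest member over blood endothelial ratios at 100 UMIs. Spp1, H1f5 and the genes named for the repeated profile were chosen after their values were seen. Repeated profiles are barcodes of 4000 or more UMIs linked by pairs with a chi-square per degree of freedom under 1.3, over the 1500 genes with most UMIs and at least 10 UMIs per gene. Scrublet (in scanpy 1.11.5) called 0 doublets in either library by its own thresholds, which is no working call, so doublets were not removed. An alternative left out the 389 FGF8 and 96 BSA barcodes with the highest scores, 7 and 1 of them members. Python 3.11.15, numpy 2.4.6, scipy 1.17.1 and pandas 2.3.3 were used, and the ratio and profile steps were tested on simulated data. Members and lists were chosen with earlier results of these data known.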

Additional observations from a re-analysis of the deposited data

How the results depend on the processing

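No paired analysis was possible because each condition is 1 library. The shares of 0.328% (FGF8) and 1.29% (BSA) moved in FGF8 to 0.164% where both Prox1 and Mmrn1 were required, 0.179% without the Plvap+ members and 0.179% without these and the repeated profile, and in BSA to 1.88% without the Pdgfra and C1q conditions, 0.400% without the repeated profile and 0.246% without both. The log2 ratios in all members were −0.059 for Prox1, −0.27 for Lyve1 and −0.22 for Ccl21a, with list medians of 0.22 (identity), 0.83 (blood vessel) and 0.67 (feedback). They depended on the members taken, as follows. With at least 4 of the 7 genes, Lyve1 was at 0.021 and Ccl21a 0.072. With both Prox1 and Mmrn1 required, the blood vessel list was at 3.23, the feedback list 1.34, Lyve1 0.032 and Ccl21a 0.12. Without the Pdgfra and C1q conditions, Ccl21a was at −0.12. With a narrower range of genes and under 10% mitochondrial UMIs, the blood vessel list was at 2.78. With no cell filter, the blood vessel list was at 0.13, Lyve1 0.049 and Ccl21a −0.053. Without the highest Scrublet scores, Ccl21a was at −0.58 and S100a8 −2.20. Without the member with most UMIs, Ccl21a was at −0.58. In female-called members, the blood vessel list was at −0.16, Prox1 −1.27, Lyve1 0.96 and Ccl21a −0.37. In male-called members, the identity list was at 0.61, the blood vessel list 0.19, Prox1 1.23, Ccl21a 0.0032, Cdh5 −0.48, Pecam1 −0.27, Cldn5 0.71 and Fabp4 −0.28. Centred on the median of all genes, Ccl21a was at −0.29. With equal weight per member, the feedback list was at 1.12 and Ccl21a −0.51. Thinned to 2000 UMIs, Flt4 was at −0.23 and Ccl21a −0.53. The following alternatives were added after the data were seen. With equal weight and the repeated profile as 1 member, the blood vessel list was at 0.19, Ccl21a −0.85, Cdh5 −0.16, Pecam1 −0.29 and Cldn5 0.31. Without the Plvap+ members, the blood vessel list was at 0.036, Prox1 0.59, Lyve1 0.46 and Ccl21a 0.52. Without the repeated profile, the blood vessel list was at −0.30, Prox1 0.67, Lyve1 0.45, Ccl21a −0.38, Cdh5 −0.53, Pecam1 −0.48, Pdpn 0.65 and Cldn5 0.19. Without both, Prox1 was at 0.50, Lyve1 0.19, Ccl21a −0.66, Pdpn 0.37 and Cldn5 0.60. With the barcodes over the limit then added, the blood vessel list was at −0.34, Lyve1 0.23, Cdh5 −0.052, Pdpn 0.37, Kdr −0.011 and Cldn5 0.056. The cause of these moves was not tested. Under the alternatives run, 109 other values of the shares, list medians, Prox1 and Ccl21a and 428 of the remaining results stayed within the interval around the reported value, and 151 of the remaining results left it.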

Other observations

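A few further genes of the combined lymphatic cells differed between libraries. Spp1, the secreted phosphoprotein osteopontin and a gene named after its values were seen, had 1019 UMIs in FGF8 and 1 in BSA, a log2 ratio of 9.42 (6.94 to 14.73), with 97.0% of the FGF8 UMIs in 1 barcode. Glycolysis genes were above 0 in 12 of 16 compared, with a median of 0.25 beside 0.04 over all genes. Inflammatory genes had a median of 0.68 over 11 genes, and of 0.02 over 6 genes in the barcodes over the gene limit alone. The direction of G2/M genes against blood endothelial cells depended on the grouping. In combined lymphatic cells 41 of 52 were higher in FGF8 and 46 of 51 in BSA (medians 0.37 and 0.74), and these cells hold barcodes of 7500 or more genes while the blood endothelial cells do not. In individual members 37 of 51 were lower in FGF8 and 26 of 45 in BSA (medians −0.24 and −0.08). In all members the medians were −0.58 and −0.31.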
